A study of Mus musculus with 2 samples.

Results

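The genes described are 37 genes of the NF-kB pathway and the chemokines, cytokines and adhesion molecules that it is known to control. They were taken by symbol, as a list drawn up with earlier results of these data known, and all probe sets annotated to them were read. The annotation used here lists 61 probe sets for 35 of the 37 genes, out of 45037 probe sets and 18193 genes. Nfkb1 and Il1rl1 have no probe set in it and are not reported here. The cells were HT22, an immortalized nerve cell line derived from mouse brain, grown with 10% serum. One culture was treated with the neurotrophic compound J147 for 1 h and the other with its DMSO vehicle for 1 h. The sample labels give the J147 concentration as 10 mM, whereas the methods of the study give 10 μM. RNA of each was hybridized to 1 Affymetrix Mouse Genome 430 2.0 array, so there are 2 arrays in all and no replicate. No difference below has a p-value, and J147 cannot be told apart from whatever else differed between these cultures. Of the markers of cell types, all 7 for fibroblasts were measured above the floor, the lowest log2 intensity of the table, as were 2 of 8 for neurons, 2 of 7 for astrocytes and 3 of 8 for microglia and macrophages. All 5 endothelial markers and the 4 listed oligodendrocyte markers lay at the floor. The cells are labelled a nerve cell line. Of the neuronal markers, Tubb3 had a log2 intensity of 7.997 with vehicle and 8.232 with J147 and Syn1 had 4.42 on both arrays, while Map2, Snap25, Rbfox3, Syt1, Nefl and Stmn2 lay at the floor. Of the microglia and macrophage markers, Csf1r had 4.96 on both arrays at its brightest probe set. Cd68 had 3.48 with vehicle, and Adgre1 had 2.42 on both arrays. Aif1, Cx3cr1, Itgam, Ptprc and Tyrobp lay at the floor.

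NF-kB is a family of dimeric transcription factors that wait in the cytoplasm, bound to inhibitors of the IkB family. Ligands such as TNF and IL-1 activate the IkB kinase, IkB is degraded, and the freed dimers enter the nucleus and bind κB sites in DNA. Their first targets include the inhibitors themselves, Nfkbia and Tnfaip3, which end the response, and chemokines such as Ccl2 and Cxcl1, which attract monocytes and neutrophils. In fibroblasts and other stromal cells serum and inflammatory ligands can induce this programme early on.

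The promoters of many of these genes hold a κB site by sequence, and those matches are shown because some genes that carry them were scored and others lay at the floor. The 250 bases before each RefSeq transcription start (GRCm38.p6) were searched on both strands for the κB consensus, a motif of 10 bases. Promoter sequences were at hand for 27 of the 37 genes. A match was found in 12 of the 27 genes, 44.4%, beside 4.46% of all 27025 genes with a promoter sequence. The list was drawn up as NF-kB pathway and target genes, so this share is a description of the list. The lines below give the gene, the position in GRCm38.p6 and the bases around a match, read 5′ to 3′ on the strand of the gene. Capitals mark 1 match, or 1 run of overlapping matches, in each line. A further match at the end of the Nfkb2 line is left in lower case. A match of Tnfaip3 that begins 125 bases before the start, and those at other starts of Nfkb2, are not printed. A match on the opposite strand appears as its complement. The genes are the inhibitors and feedback genes, the subunits and then the secreted factors.
Nfkbia, chr12:55492648-55492706, minus strand: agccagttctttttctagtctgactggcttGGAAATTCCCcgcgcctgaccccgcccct
Nfkbie, chr17:45555564-45555633, plus strand: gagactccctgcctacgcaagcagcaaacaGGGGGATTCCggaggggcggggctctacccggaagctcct
Tnfaip3, chr10:19015411-19015452, minus strand: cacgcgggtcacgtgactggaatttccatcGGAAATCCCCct
Tnip1, chr11:54962957-54963028, minus strand: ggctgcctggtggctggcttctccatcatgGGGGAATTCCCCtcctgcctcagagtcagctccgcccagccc
Nfkb2, chr19:46304668-46304736, plus strand: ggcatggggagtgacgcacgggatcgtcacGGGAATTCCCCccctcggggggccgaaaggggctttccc
Rel, chr11:23771021-23771091, minus strand: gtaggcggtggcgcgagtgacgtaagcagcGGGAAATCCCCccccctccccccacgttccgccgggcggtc
Csf1, chr3:107760584-107760653, minus strand: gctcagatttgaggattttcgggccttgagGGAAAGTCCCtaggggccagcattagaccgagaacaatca
Cxcl1, chr5:90891144-90891214, plus strand: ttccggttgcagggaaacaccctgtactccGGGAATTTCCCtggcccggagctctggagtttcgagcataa
Cxcl2, chr5:90903772-90903842, plus strand: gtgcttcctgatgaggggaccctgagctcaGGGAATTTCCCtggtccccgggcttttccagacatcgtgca
Cxcl10, chr5:92349009-92349078, minus strand: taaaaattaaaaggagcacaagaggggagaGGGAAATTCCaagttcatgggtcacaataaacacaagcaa
Cxcl10, chr5:92348953-92349022, minus strand: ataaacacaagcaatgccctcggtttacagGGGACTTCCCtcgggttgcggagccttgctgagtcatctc
Il6, chr5:30013040-30013109, plus strand: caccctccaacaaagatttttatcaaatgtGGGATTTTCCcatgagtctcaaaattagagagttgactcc
Ccl20, chr1:83116656-83116725, plus strand: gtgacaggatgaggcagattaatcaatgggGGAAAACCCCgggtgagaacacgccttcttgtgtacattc
The match in Cxcl1 begins 71 bases before the start and that in Cxcl2 begins 97 bases before it, and the 11 bases in capitals are spelled the same in both. These chemokine genes are adjacent on chromosome 5. Of the 12 genes with a match, 9 had an intensity that could be scored, and Cxcl2, Il6 and Ccl20 were at the floor on both arrays. The 9 had log2 differences, J147 minus vehicle, from -0.40 to 0.07. Scored genes with a promoter sequence and no match ran from -0.65, for Birc2, to 0.16, for Rela. A link between a match and a difference was not tested. A match is not shown to be a bound site, and nothing about NF-kB binding was measured.

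**Figure D1:**
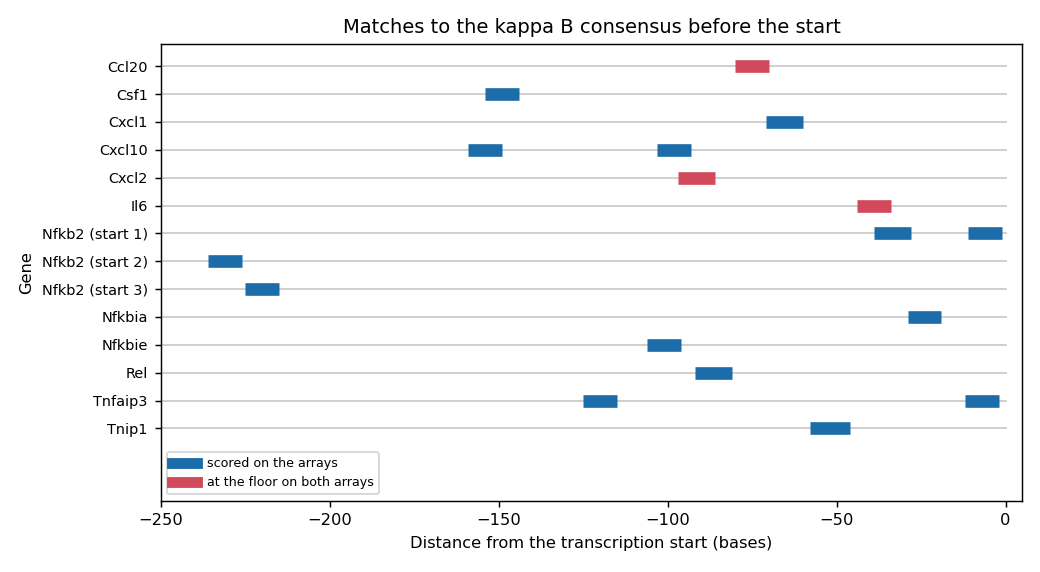
Position of each match to the κB consensus (bars) in the 250 bases before the transcription start (horizontal axis, bases from the start) for each promoter sequence with a match (vertical axis; Nfkb2 has 3 starts). Blue genes were scored on the arrays, and the 3 red ones, Ccl20, Cxcl2 and Il6, were at the floor on both arrays.

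Levels are given as deposited, as log2 intensities made with gcRMA, which corrects the background of each probe by its GC content. The floor of the table is a log2 intensity of 2.23, and 46.3% of the probe sets lie within 0.01 of it with vehicle and 46.0% with J147. Levels at that value have no order and hide any difference. A probe set was scored if its intensity, after each array had been scaled to a median of 100, had a mean above 100 over both arrays. By this rule 42 of the 61 probe sets and 25 of the 35 genes were scored. The 10 other genes did not reach it, so the counts below cover the 25 and not the whole list. A gene was read from its brightest scored probe set. The scaling shifts every log2 difference by -0.0046. As a yardstick in place of replicates, each difference is set beside the SD of the log2 differences of the 500 scored probe sets closest to it in intensity, called the neighbour SD. It describes the scatter of other genes between the 2 arrays and is not a replicate error. Levels of different probe sets were not compared with each other, since probes differ in affinity.

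None of the 25 scored genes differed by 2-fold or more between the arrays. Of all 10611 scored genes, 0.0660% were higher with J147 by that much and 0.0754% lower. By 1.5-fold, 1 of the 25 was lower with J147, Birc2, and none was higher, beside 0.810% of all scored genes lower and 0.556% higher. Most of the differences were small and leaned downward. The deposited value was lower with J147 in 19 of the 25 genes, higher in 5 and identical in 1, beside 46.6% of all scored genes lower and 38.8% higher. The median log2 difference of the 25 genes was -0.12, beside -0.0046 for all scored genes. With no filter on intensity, over all 35 listed genes, it was -0.04, since genes at the floor have no difference to show. Of the 25, 14 were lower by more than 0.1 log2 units, beside 21.9% of all scored genes, and 2 were higher by more than 0.1, beside 15.0%. The limit of 0.1 was chosen after the values were seen. Of the other features read on these arrays, some were lower too and others were higher. The control probe sets for 18S rRNA had a median log2 difference of -0.62. Of the 7 fibroblast markers, 5 were lower at their brightest probe set, beside 46.6% of all scored genes. The 5 were Pdgfrb at -0.48, Pdgfra at -0.34, Col3a1 at -0.19, Dcn at -0.13 and Col1a1 at -0.01. Col1a2 was at 0.02 and Thy1 had identical values. A dimmer probe set of Pdgfrb had identical values, and those of Pdgfra were at -0.03 and -0.08. Dimmer ones of Col3a1 were at -0.36, of Col1a1 at -0.06 and of Col1a2 at -0.03. The summed intensity of the 7, in which the brightest probe set, that of Col1a2, weighs most, was 28872 with vehicle and 27797 with J147. Of the scored markers of other cell types, Tubb3 was at 0.23, Slc1a3 at 0.11, Cd68 at 0.11 and Gja1 at 0.04. Syn1 was at -0.0052, and Csf1r and Adgre1 had identical values. The part of these features in the differences of the NF-kB genes was not tested. Among these genes' 42 scored probe sets, 29 differed by under their neighbour SD, 12 by 1 to 2 times that SD and 1, that of Birc2, by more. Over all scored probe sets, 77.9% differed by less than 1 neighbour SD and 6.03% by at least 2. For scale, the early growth response gene Egr3 was 7.98-fold higher with J147 on the same arrays at probe set 1436329_at. Its other probe set, 1421486_at, lay at the floor on both arrays.

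**Figure D2:**
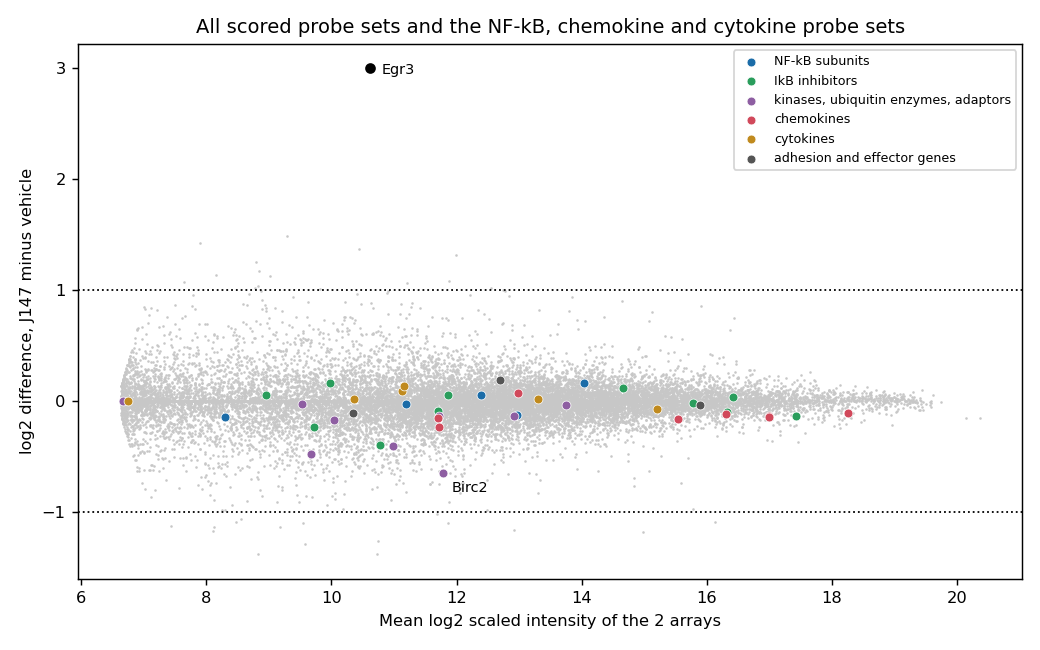
Log2 difference, J147 minus vehicle (vertical axis), against the mean log2 scaled intensity of the 2 arrays (horizontal axis) for all scored probe sets (grey) and for those of the NF-kB, chemokine and cytokine genes (colours by role). Dotted lines mark 2-fold. All coloured points lie inside these lines, with Birc2 the lowest at -0.65, and Egr3 lies far above them, 7.98-fold higher with J147.

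Of the 5 NF-kB subunits, 4 are listed and all 4 were above the floor on both arrays. Rela encodes p65, the main activating subunit of the canonical pathway. Its single probe set had a log2 intensity of 9.62 with vehicle and 9.79 with J147, a log2 difference of 0.16 with a neighbour SD of 0.14. It was the largest upward difference among the 25 genes. Nfkb2 encodes p100, the precursor of p52 in the noncanonical pathway. Of its probe sets, 1425902_a_at measured 8.68 with vehicle and 8.56 with J147, while 1429128_x_at had 8.03 and 8.09, so that the probe sets differed in direction. Rel, the c-Rel subunit known best from lymphocytes, had 4.02 for vehicle and 3.89 for J147. Relb, the partner of p52, had 6.86 for vehicle and 6.84 for J147. Apart from Rela, the differences of these subunits were smaller than their neighbour SDs.

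The 4 genes of the IkB family lay on both sides of 0, with log2 differences of their brightest probe sets from -0.14 to 0.11. Nfkbia encodes IkBα, the inhibitor that NF-kB itself induces most quickly. It has 5 probe sets, all scored. Probe set 1438157_s_at, the brightest, had a log2 intensity of 13.1 with vehicle and 13.0 with J147, a log2 difference of -0.14 with a neighbour SD of 0.086. The next brightest, 1420088_at, 1449731_s_at and 1448306_at, had log2 differences of 0.04, -0.10 and -0.02. The dimmest, 1420089_at, had 6.64 for vehicle and 6.25 for J147 and a difference of -0.40 with a neighbour SD of 0.23. Thus 4 of the 5 were lower with J147, the brightest and the dimmest by between 1 and 2 neighbour SDs, and 1 was higher. Nfkbie, which encodes IkBε, had log2 differences of -0.09 and -0.24 at its 2 probe sets. Nfkbib, which encodes IkBβ, had a log2 difference of 0.05 at one probe set, and its other was at the floor on both arrays. Nfkbiz encodes IkBζ, an inducible nuclear member that acts as a cofactor. All 3 of its probe sets were higher with J147, with log2 differences of 0.11, 0.16 and 0.05 against neighbour SDs of 0.13, 0.23 and 0.25.

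The largest differences were among the enzymes and adaptors that carry and end the signal, where all 7 scored genes of 8 were lower with J147, beside 46.6% of all scored genes. Their median log2 difference was -0.17, beside -0.0046 for all scored genes. Birc2 encodes cIAP1, a ubiquitin ligase of the TNF receptor complex. Its single probe set had a log2 intensity of 7.76 with vehicle and 7.12 with J147. That is 1.56-fold lower with J147, a log2 difference of -0.65 with a neighbour SD of 0.19. Birc3, the adjacent gene on chromosome 9, encodes the related ligase cIAP2. It had 5.79 for vehicle and 5.63 for J147, a log2 difference of -0.17 with a neighbour SD of 0.24, and its second probe set was at the floor. The neighbour of Birc2 thus differed in the same direction but by less than its SD. Ikbke encodes IKKε, an inducible kinase related to the IkB kinases. It had 5.56 for vehicle and 5.09 for J147, a log2 difference of -0.48 with a neighbour SD of 0.24. Tnfaip3 encodes A20, a ubiquitin-editing enzyme that ends NF-kB signalling. Probe set 1433699_at had 6.85 for vehicle and 6.45 for J147, a log2 difference of -0.40 with a neighbour SD of 0.23, while 1450829_at was at the floor on both arrays. Its partner Tnip1 had 7.44 and 7.31, and the adaptor Traf2 had 8.65 and 8.52, each lower by less than its neighbour SD. Ikbkb, the catalytic subunit of the IkB kinase that phosphorylates IkBα, had 9.43 for vehicle and 9.40 for J147 at its brightest probe set. Of its 4 other probe sets, 1432275_at and 1454184_a_at lay at the floor, and 1445141_at was identical at 2.33, just above it. The last, 1426333_a_at, had a log2 difference of -0.03. Traf1, an adaptor that NF-kB induces, had 2.23 on the vehicle array at both probe sets, with 2.25 and 2.23 on the J147 array.

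**Figure D3:**
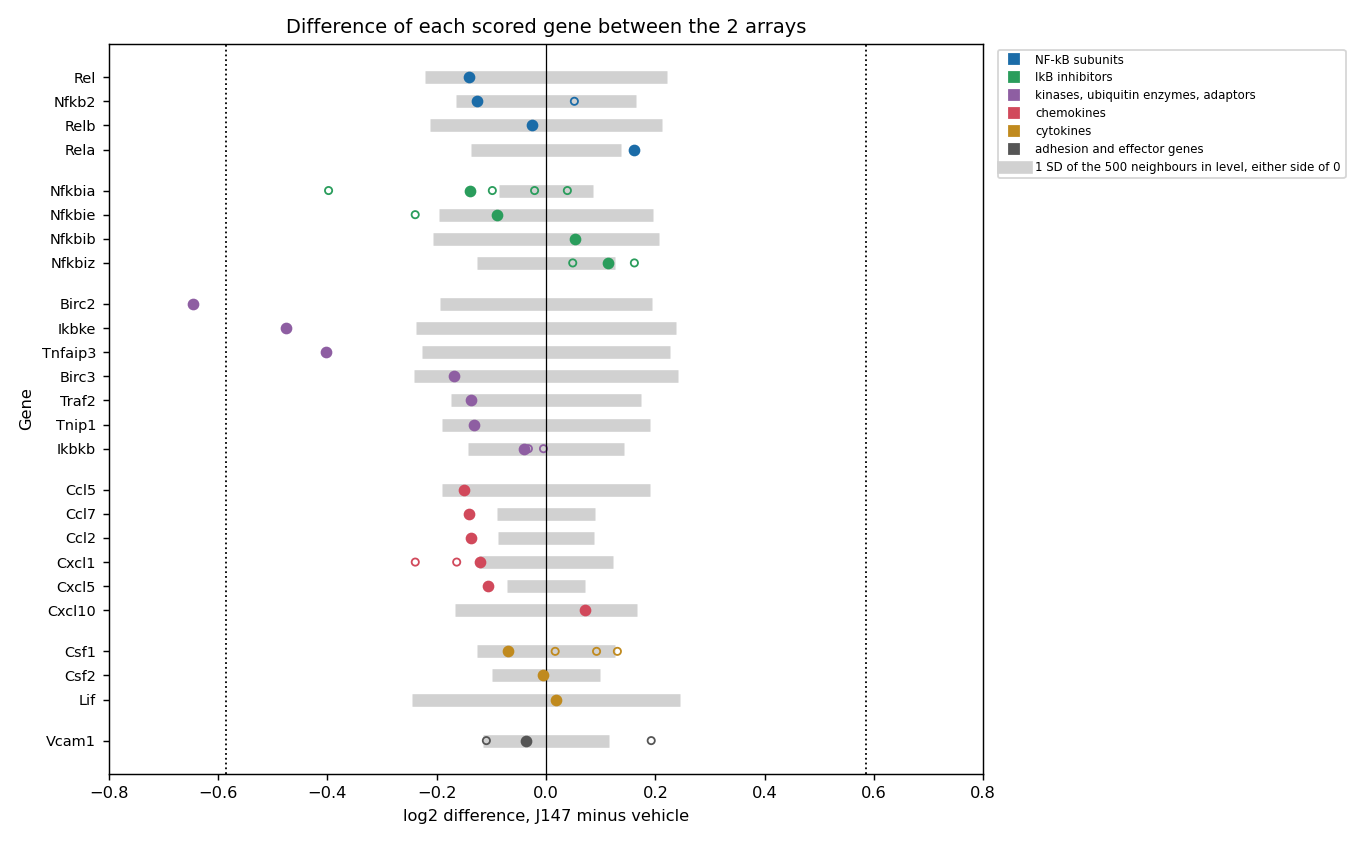
J147 minus vehicle in log2 units (horizontal axis) for each of the 25 scored genes (vertical axis, grouped and coloured by role). Filled circles are the brightest probe set, open circles other scored probe sets, grey bars reach 1 neighbour SD either side of 0, and dotted lines mark 1.5-fold. Birc2, at -0.65, is the only gene past a dotted line.

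Of the 9 chemokines 6 were scored, among them Ccl2, Ccl7, Cxcl1 and Cxcl5, which were well above the floor also in cells without J147. The probe sets of Ccl20, Cxcl2 and Cxcl12 were at the floor on both arrays. Ccl2, the monocyte attractant MCP-1, had a log2 intensity of 12.7 with vehicle and 12.6 with J147. Ccl7, its adjacent gene on chromosome 11, encodes the related attractant MCP-3 and also had 12.7 and 12.6. The log2 differences of Ccl2 and Ccl7 were nearly equal, at -0.137 and -0.141, with neighbour SDs of 0.088 and 0.089. Cxcl5, an attractant of neutrophils, had 13.96 for vehicle and 13.86 for J147, a log2 difference of -0.11 with a neighbour SD of 0.072. Cxcl1, a further neutrophil attractant, had 12.0 for vehicle and 11.9 for J147 at its brightest probe set. Its 3 probe sets were all lower with J147, by -0.12, -0.16 and -0.24 log2 units, with neighbour SDs of 0.12, 0.12 and 0.19. Cxcl2, the gene next to Cxcl1 and a ligand of the same receptor, was listed at 2.23 on both arrays.

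The 2 remaining scored chemokines were Ccl5 and Cxcl10. Ccl5, which encodes RANTES, had 7.44 for vehicle and 7.29 for J147, a log2 difference of -0.15 with a neighbour SD of 0.19. Cxcl10 is induced by interferons together with NF-kB, and it was the exception in direction, with 8.60 for vehicle and 8.67 for J147. In all, 5 of the 6 scored chemokines were lower by more than 0.1 log2 units, a limit chosen after the values were seen, beside 21.9% of all scored genes. Their median was -0.13, beside -0.0046. For Ccl2, Ccl7 and Cxcl5 the difference was between 1 and 2 neighbour SDs, and for Ccl5, Cxcl10 and the brightest probe set of Cxcl1 it was under 1. With quantile normalization 4 of the 6 were lower by more than 0.1. In fold these are small, from 1.08-fold lower for Cxcl5 to 1.11-fold lower for Ccl5. All 3 probe sets of Cxcl12, the homeostatic ligand of CXCR4, were at the floor.

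Of the cytokines, the classical inflammatory ones were not measured above the floor. Il6, Il1a, Il1b and Tnf were each listed at 2.23 on both arrays, with 1 probe set each. A value at the floor is not proof that an mRNA was missing. In 5 genes of the list, Birc3, Ikbkb, Lif, Nfkbib and Tnfaip3, one probe set was scored and another lay at the floor. Csf1, the growth factor of macrophages, was measured by 4 probe sets. The brightest, 1460220_a_at, had a log2 intensity of 10.9 with vehicle and 10.8 with J147, and the log2 differences of the 4 ran from -0.07 to 0.13, within their neighbour SDs. Lif, a cytokine of the IL-6 family, had 6.01 for vehicle and 6.03 for J147. Csf2, the growth factor GM-CSF, had an identical value of 2.42 on both arrays, just above the floor, so its difference carries no information.

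Vcam1, the adhesion molecule that holds leukocytes through integrin α4β1, was measured by 3 probe sets that did not share a direction. The brightest, 1448162_at, had a log2 intensity of 11.57 with vehicle and 11.54 with J147, and the others had log2 differences of 0.19 and -0.11. Only 1415989_at, at 0.19, passed its neighbour SD of 0.17. Icam1, the ligand of leukocyte β2 integrins, and Nos2, the inducible nitric oxide synthase, were listed at the floor on both arrays.

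**Figure D4:**
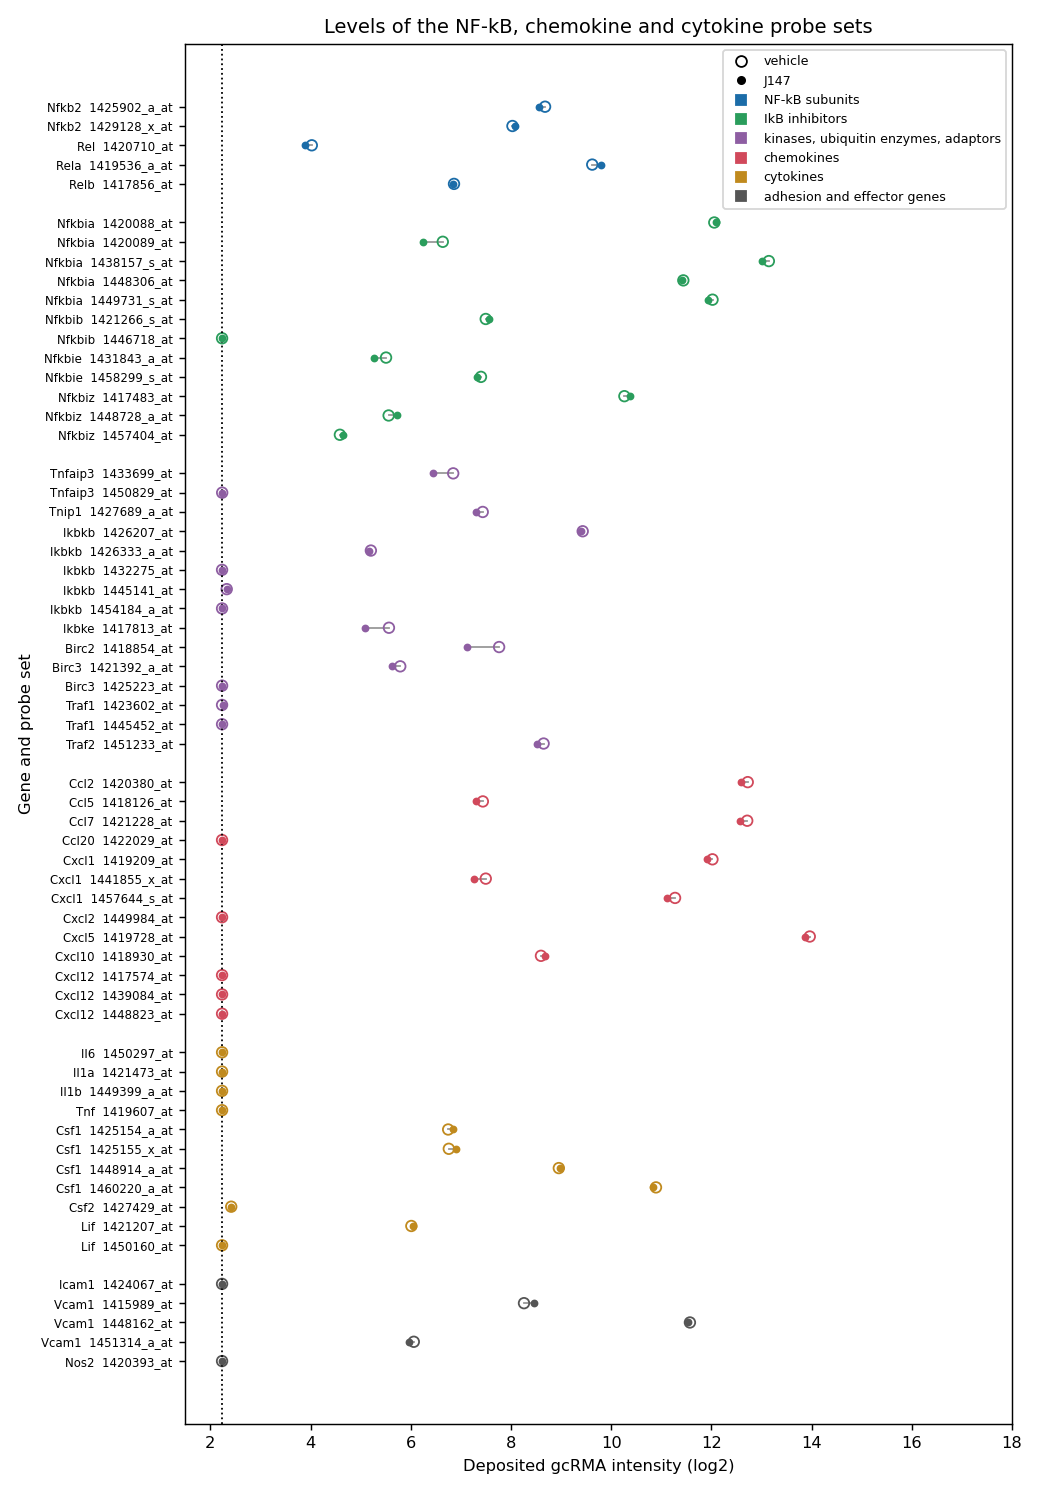
Deposited gcRMA intensity on the log2 scale (horizontal axis) of all 61 probe sets (vertical axis, by gene and role) for vehicle (open circles) and J147 (filled circles), from 1 array each. A dotted line marks the floor, 2.23. Both arrays place the same probe sets at or near this line, among them those of Il6, Tnf and Cxcl2, and the longest line joining a pair is that of Birc2.

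Other genes of the pathway were read from 3 further lists. Of 43 receptors, adaptors, kinases and further inhibitor and feedback genes of the pathway, 38 were listed and 33 scored. None passed 1.5-fold at its brightest probe set, and the median log2 difference was -0.0046, the same as over all scored genes. A dimmer probe set of Itch, 1431316_at, was at -0.66, while its brightest was at -0.20. The 2 with the largest differences were the TWEAK receptor Tnfrsf12a, at 0.55 with a neighbour SD of 0.12, and Il1rap, a subunit of the IL-1 receptor, at 0.35 near the floor. Il1rap had a scaled intensity of 98.4 with vehicle and 125.3 with J147, so it passed the filter only through the J147 array. Its other probe sets lay at the floor on both arrays, and its difference is not read further. Of 29 further genes known as NF-kB targets 26 were listed and 16 scored, and the median of the 16 was -0.02. Past 1.5-fold at the brightest probe set, 2 of the 16 were higher on the J147 array and 0 lower, beside 0.556% and 0.810% of all scored genes. They were Ptgs2, the inducible cyclooxygenase, at 1.75-fold, and Gadd45b, a stress-response gene, at 1.61-fold. Dimmer probe sets were at 1.78-fold for Ptgs2, 1417263_at, and at 1.94-fold for Gadd45b, 1449773_s_at. Another of Gadd45b, 1420197_at, lay at the floor on both arrays. Both genes are also induced by pathways other than NF-kB. A dimmer probe set of Cflar, 1449317_at, was at 0.61, while its brightest was at -0.06. Of 16 receptors of the chemokines, cytokines and adhesion molecules 15 were listed and 4 scored, and none passed 1.5-fold. The largest differences were 0.16 for the scavenging chemokine receptor Ackr3, which binds Cxcl12, and -0.04 for Il6st, the shared gp130 subunit that LIF and IL-6 use.

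**Figure D5:**
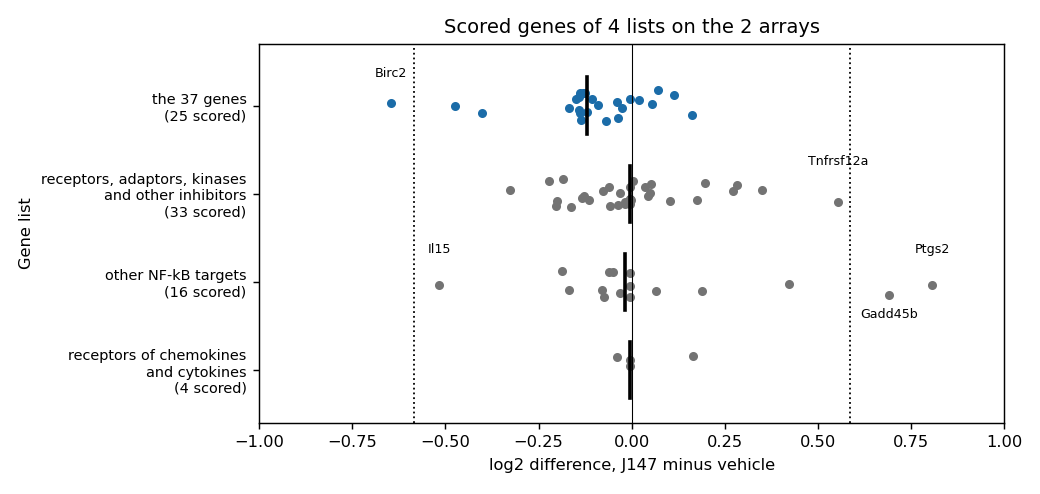
J147 minus vehicle in log2 units (horizontal axis) for the scored genes (points) of 4 lists (vertical axis), with the median as a black bar and dotted lines at 1.5-fold; genes differing by at least 0.5 log2 units are named where space allows. The median of the 37 genes, over 25 scored, is -0.12, and the medians of the other lists are -0.02 or closer to 0.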

How the data were processed

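Total RNA from HT22 cells was labelled and hybridized to Affymetrix Mouse Genome 430 2.0 arrays, 1 array per condition. The values deposited by the authors are log2 intensities that they computed with gcRMA in R. Affymetrix Expression Console 1.0 is also named in the submitters' processing notes. The gcRMA version and a genome build of the probe annotation are not given in the sources used here.

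After the methods of the study, the median of each array was set to 100, with the controls left out, and 22545 of 45037 probe sets had a mean above 100 and were scored. The platform annotation gives 1 gene for 34945 of the 45037, several for 932 and none for 9160, and symbols were updated by Entrez number to RefSeq (GRCm38.p6). With 1 array per condition no test was run. The named genes are the 37, the genes of 3 other lists that passed 1.5-fold (at most 4 a list, or else the 2 largest differences) and Egr3 for scale. The genes and lists were chosen with earlier results of these data known. Alternatives covered the normalization (as deposited, quantile, or a lowess curve on level with a span of 0.3), a pseudocount of 50, the filter and how probe sets were combined. Python 3.11.15 was used with numpy 2.4.6, pandas 2.3.3, statsmodels 0.14.6 and matplotlib 3.10.9, and the steps were tested on simulated data. With so few arrays, the precision of the values is limited by their number.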

Additional observations from a re-analysis of the deposited data

How the results depend on the processing

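The counts of 0 genes past 2-fold and 1 past 1.5-fold were the same under all 10 alternatives. The median log2 difference of the scored genes, 25 of the 37 in the main setting, ran from -0.13 to -0.0359. The latter was with no filter on intensity, which adds the 10 genes at or next to the floor. Results added after seeing the data were the chemokine values, the counts beyond 0.1 log2 units and the differences of single genes. Of 311 values in all, 304 stayed close to the reported one and 7 moved. Close means within 1.5 times for counts and medians and within 1 neighbour SD for the difference of a gene. Of the 311, 241 were differences of single genes, many of which most alternatives could not alter. A difference smaller than its neighbour SD could also vanish and still count as close. A change of sign was counted only for medians and for Birc2, and there were 0. The smaller differences of Nfkbia, Csf1, Vcam1 and Relb did change sign under some alternatives. The log2 difference of Birc2 ran from -0.65 to -0.62. The 6 other moves came from the choice of probe set. Nfkbia was at -0.40 by its most different probe set and at 0.04 without the suffixes _x_at, _s_at and _a_at, Csf1 was at 0.13 and Vcam1 at 0.19 by their most different ones, and the genes higher by more than 0.1 numbered 4 and 1 in place of 2. No paired analysis was possible because there is 1 array per condition. The floor limits what can be seen of the genes that lie there.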
